A study of Mus musculus with 2 samples.

Results

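The cells described here were colon lamina propria cells with the transcript profile of type 2 conventional dendritic cells (cDC2) that carry the lectin genes Cd209a and Mgl2. They were picked from single-cell RNA counts by a rule on unique molecular identifiers (UMIs, 1 per captured RNA molecule). Among cells with 200 to 6000 detected genes and at most 15% mitochondrial UMIs, a member held at least 5 UMIs of Cd209a, Mgl2 and Clec10a together, at least 1 UMI of Flt3, Zbtb46 or Cd209a and at least 10 UMIs of H2-Aa. It held fewer than 2 UMIs of Xcr1 and Clec9a, fewer than 5 of Ccr7, Fscn1 and Ccl22 and none of Cd3e and Cd79a, and C1qa, C1qb and C1qc made up under 0.2% of its UMIs. The rule found 340 members among 5111 kept cells, 118 of 2597 in the wild-type library and 222 of 2514 in the knockout library. Levels of the genes in the rule therefore describe the choice and support nothing.

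Per the labels, the cells were cd11b+ cells of the mouse gut lamina propria, from a wild-type genotype (WT) and from mice lacking a long non-coding RNA (KO), named LncRNA17Rik in the labels and lncLy6c in the study. Per the study, the mice were 8 weeks old and male, the tissue was the colon and cells of several mice were pooled for each library. Both groups went through the same Percoll gradient, staining for sorting, 7-AAD removal of dead cells and droplet capture, and the labels name no treatment for either. Each genotype is represented by 1 library, so no difference has a replicate check, no test between genotypes was possible, and every interval below is a 95% interval that covers counting error only. The name LncRNA17Rik is not that of any single feature in the files, so the deletion was not checked by its own counts.

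Conventional dendritic cells take up antigen in tissue, load it on MHC molecules and carry it to lymph nodes, where they prime T cells. They depend on the cytokine receptor Flt3 and express the transcription factor Zbtb46, which monocytes and macrophages largely lack. The cDC2 branch relies on Irf4 and Klf4, presents antigen on MHC class II to CD4 T cells and has been tied to type 2 and type 17 responses. Cd209a encodes a DC-SIGN homologue, and Mgl2 and Clec10a encode paired galactose-type lectins that are near copies of each other, so their counts can share reads.

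The members were a larger share of the cells in KO than in WT. They made up 4.54% (exact Clopper-Pearson interval 3.78% to 5.42%) of kept WT cells and 8.83% (7.75% to 10.0%) of kept KO cells. The log2 ratio of the shares was 0.96 (0.63 to 1.29). When each cell was thinned to 3000 UMIs and shallower cells were left out, 57 of 1712 WT cells and 197 of 1743 KO cells met the rule, which is 3.33% (2.53% to 4.29%) and 11.3% (9.85% to 12.9%), against 115 and 217 of the same cells before thinning.

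Without thinning, the order turned round with the denominator. Among gated dendritic cells, which were the members, Plet1 Itgae Dpp4 cDC2, Xcr1 Clec9a cDC1 and mature Ccr7 cells, members were 38.3% (32.9% to 44.0%) of 308 WT cells and 30.1% (26.8% to 33.6%) of 737 KO cells. The log2 ratio of these shares was -0.35 (-0.68 to -0.01). Mature cells were 42.5% of the gated dendritic cells in WT and 59.0% in KO. A Flt3 UMI was seen in 66.4% of the 131 WT mature cells, so Flt3 did not mark each of them as a dendritic cell. Members had to hold fewer than 5 UMIs of Ccr7, Fscn1 and Ccl22, a fixed count at any depth. The median mature cell held 10650 UMIs in WT and 16215 in KO. The share among gated dendritic cells was not recomputed on thinned cells, so the part of depth in it was not tested. In single-cell libraries a share also moves with every other cell in the denominator, and gated B cells numbered 303 in WT and 86 in KO. Which of these changes the share reflects cannot be told apart with 1 sorted library per genotype.

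**Figure D1:**
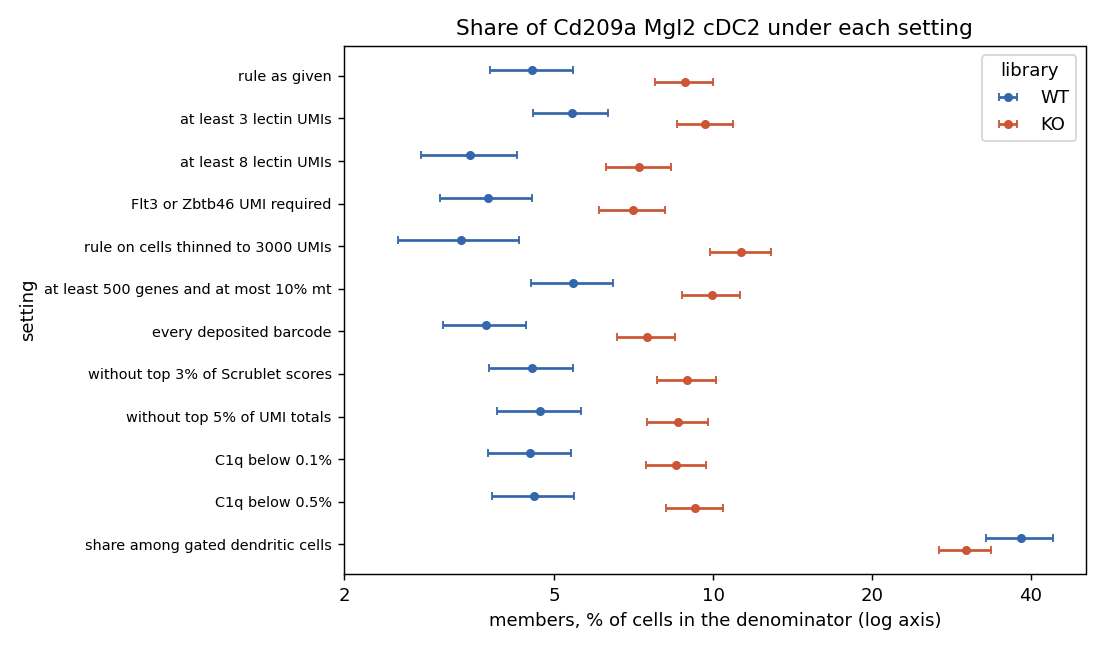
Members as a percentage of the cells in the denominator (log axis) under the rule as given and 11 other settings, WT in blue and KO in red, with exact Clopper-Pearson 95% intervals. KO lies above WT in every setting with kept cells or barcodes as the denominator, and below WT in the bottom row, where the denominator is gated dendritic cells (38.3% in WT and 30.1% in KO).

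The members were deeply sequenced cells. Their summed UMIs were 1233604 in WT and 2997619 in KO. The median member held 9890 UMIs and 2710 detected genes in WT and 12788 UMIs and 2968 genes in KO, against 5073 and 6564 UMIs in the median kept cell. Mitochondrial UMIs were 3.21% and 3.31% in the median member, and ribosomal protein genes took 19.8% and 20.5% of the UMIs. No cell barcode of a member was shared between the libraries.

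The lectins did not mark every member alike. Cd209a (chr8:3743397-3748984, minus strand, GRCm38) gave a UMI in 110 of 118 WT members and 217 of 222 KO members. Mgl2 (chr11:70130329-70137550, plus strand) gave one in 65 WT and 151 KO members, and Clec10a (chr11:70156197-70170834, plus strand) in 82 and 156. All 3 lectins were seen together in 42 WT members (35.6%) and 102 KO members (45.9%), and exactly 1 of them in 21 and 22. The summed lectin UMIs per cell had a median of 11 in WT and 17 in KO, with a largest value of 69 and 147. In T cells, which should lack these genes, the share with a UMI was 0 of 158 WT cells for each of the lectins. Of 53 KO T cells, 0 held Cd209a and 1 each held Mgl2 and Clec10a, at median depths of 5367 UMIs in WT and 6316 in KO. B cells, which should lack them as well, held Cd209a in 12 of 303 WT cells (3.96%), Mgl2 in 9 and Clec10a in 8, and in 1, 4 and 2 of 86 KO cells, at median depths of 10004 and 4452 UMIs.

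Near the lectin limit the numbers of cells showed no clear break. Of the cells that met all other conditions, 13 WT and 15 KO cells had 3 lectin UMIs, 9 and 6 had 4, 9 and 9 had 5, and 11 and 15 had 6. The cells just outside and just inside the limit held similar H2-Ab1, from 6742 to 8173 CPM (UMIs of a gene per 1000000 UMIs summed over the cells) in WT and from 7522 to 9894 CPM in KO. Flt3 in the 4 bins ran from 180 to 252 CPM in WT and from 90.9 to 147.5 CPM in KO. Ly6c2 and Itgae varied more between these small bins. In WT Ly6c2 ran from 10.9 to 648 CPM and Itgae from 9.0 to 173.5 CPM, and in KO from 0 to 42.1 and from 15.9 to 133 CPM.

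The limit on Ccr7, Fscn1 and Ccl22 kept out more cells in KO than in WT. It alone excluded 51 WT and 281 KO cells, which met every other condition. Just inside the limit, with 3 to 4 UMIs of the maturity genes, were 16 WT and 49 KO cells, and just outside it, with 5 to 6, were 10 and 40. The rule required the lectins in all of these cells. Their Cd209a was 961 CPM in WT and 906 CPM in KO inside the limit and 568 and 966 CPM outside it, given as a description.

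The markers given for the label are genes of the rule, so their levels are a description. Zbtb46 (chr2:181387762-181459426, minus strand), a zinc-finger repressor of conventional dendritic cells, had 30 UMIs or 24.3 CPM (exact Poisson interval 16.4 to 34.7) in WT members and 155 UMIs or 51.7 CPM (43.9 to 60.5) in KO members. Flt3, the growth factor receptor of the lineage, was 186 CPM in WT against 112 CPM in KO. Both were 0 in monocytes with MHC class II and in C1q macrophages, whose gates required their absence. A UMI of Flt3 or Zbtb46 was seen in 97 of 118 WT and 177 of 222 KO members, so 21 and 45 members entered through Cd209a alone.

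Some defining genes of other cells were low or absent, and others were not. Mertk, a macrophage receptor for apoptotic cells, had 0 UMIs in both libraries, and Fcgr1, the macrophage Fc receptor CD64, had 27 UMIs in WT and 9 in KO. Siglech of plasmacytoid cells had 6 UMIs in each library. Xcr1 and Clec9a of cDC1 and Fscn1 of mature cells had at most 9 UMIs each in either library, but the rule itself kept them low. Ms4a1 of B cells had 2 and 0 UMIs, and Trac of T cells had 1 and 5. Genes that monocytes and macrophages express were present, among them Lyz2 (712 CPM in WT, 731 CPM in KO), Cd14 at 250 and 243 CPM, Csf1r at 122 and 104 CPM and Apoe at 143.5 and 91.7 CPM. Ly6c2, Plac8, granzyme B and genes of plasma and epithelial cells were seen as well and are described with their lists.

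**Figure D2:**
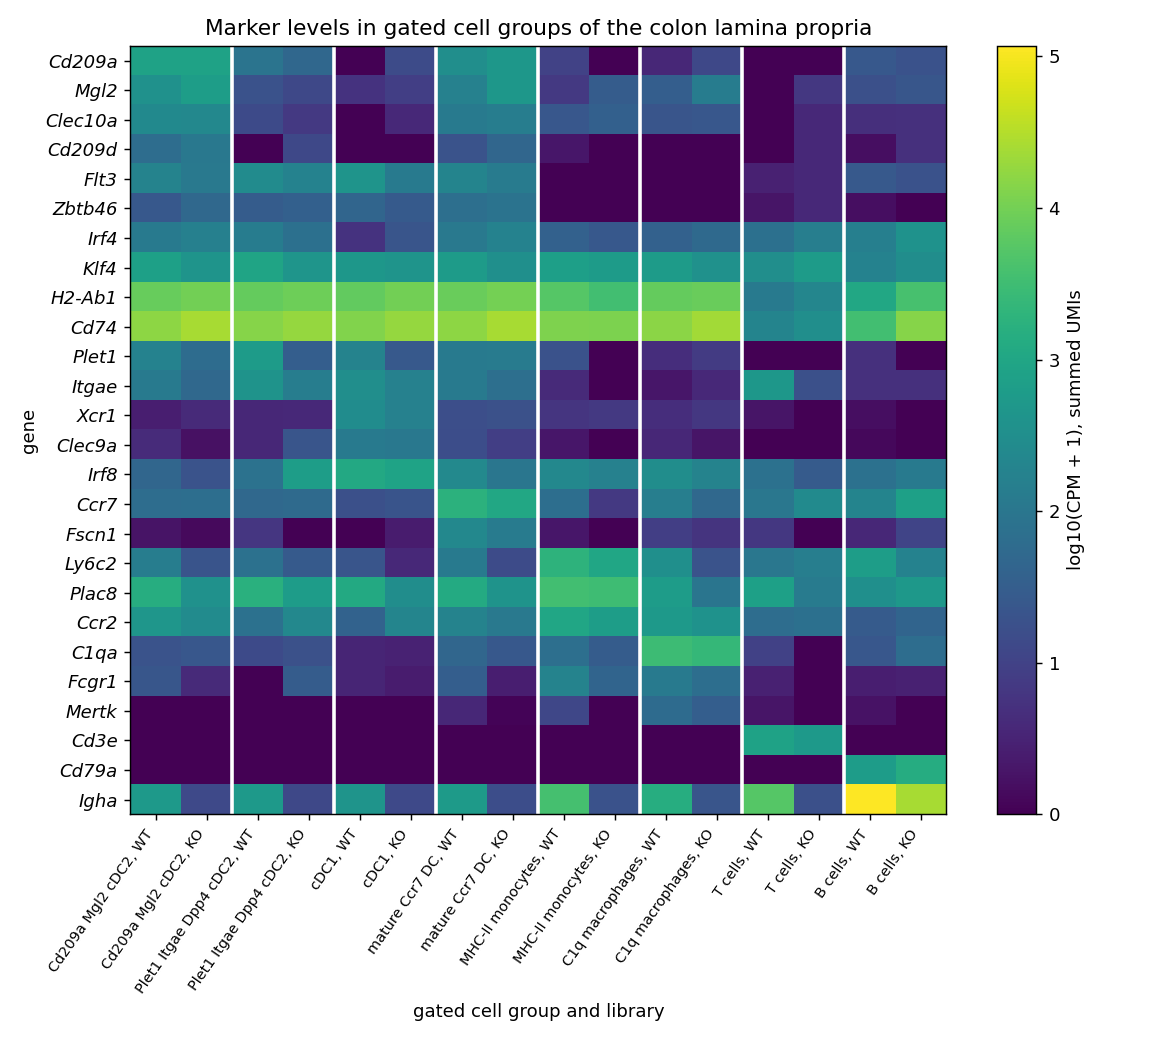
Levels of 26 genes (rows) in 8 gated cell groups of each library (columns), as log10 of CPM + 1 from summed UMIs, from dark (0) to bright. The Cd209a, Mgl2 and Clec10a rows are bright in the 2 left columns and in the mature Ccr7 columns, and the Mertk row is dark in the members. Igha is 551 CPM in WT members and 12.01 CPM in KO members.

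Outside the rule, several genes stood higher in members than in all other kept cells of both libraries. They were ranked by the lower of the 2 library folds, with a prior of 10 CPM. Klrd1, a C-type lectin-like receptor best known from natural killer cells, was 254.5 CPM in WT members against 68.8 CPM in other WT cells, and 217 against 94.0 CPM in KO. Olfm1, a secreted glycoprotein, was 195 against 41.1 CPM in WT and 164.5 against 71.2 CPM in KO. Ccnd1 (cyclin D1), Tep1, Vrk1 and Eps8 came next, with folds of 2.62, 2.39, 3.03 and 3.16 in WT and 2.09, 2.07, 1.85 and 1.78 in KO. Cbfa2t3, Emp1 and Wnt11 followed. After them came H2-DMa, which helps load peptide on MHC class II, and Napsa, an aspartic protease. Those 2 had WT folds of 2.59 and 3.40 and KO folds of 1.72 and 1.71. Some of these genes were as high or higher in the other dendritic cells. Ccnd1 was 215 CPM in WT members, 404 CPM in WT cDC1 and 221 CPM in WT mature cells, and Napsa was 413 CPM in WT members and 491 CPM in WT Plet1 Itgae Dpp4 cDC2. The KO folds were smaller for all of these named genes, and the other KO cells included 435 mature cells with a related profile, against 131 in WT.

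To see how the members differed by genotype, UMIs were summed over the members of each library. Of 6457 genes with at least 50 UMIs in all, 161 were at least 2-fold higher in KO (2.49% of the genes) and 189 at least 2-fold lower (2.93%), with a prior of 1 CPM. Counts for the gene lists below are to be read against these shares. The median log2 ratio was -0.12, which TMM scaling moved to 0.01, so a ratio near -0.12 is that of the typical gene. Fewer genes were at least 2-fold lower under TMM scaling, as given at the end. The larger number of lower than higher genes therefore depends on the scaling. Log2 ratios below are KO over WT with exact conditional binomial intervals. Over the same genes the interval lay above 0 for 716 (11.1%) and below 0 for 1392 (21.6%), and it is narrower for abundant genes.

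**Figure D3:**
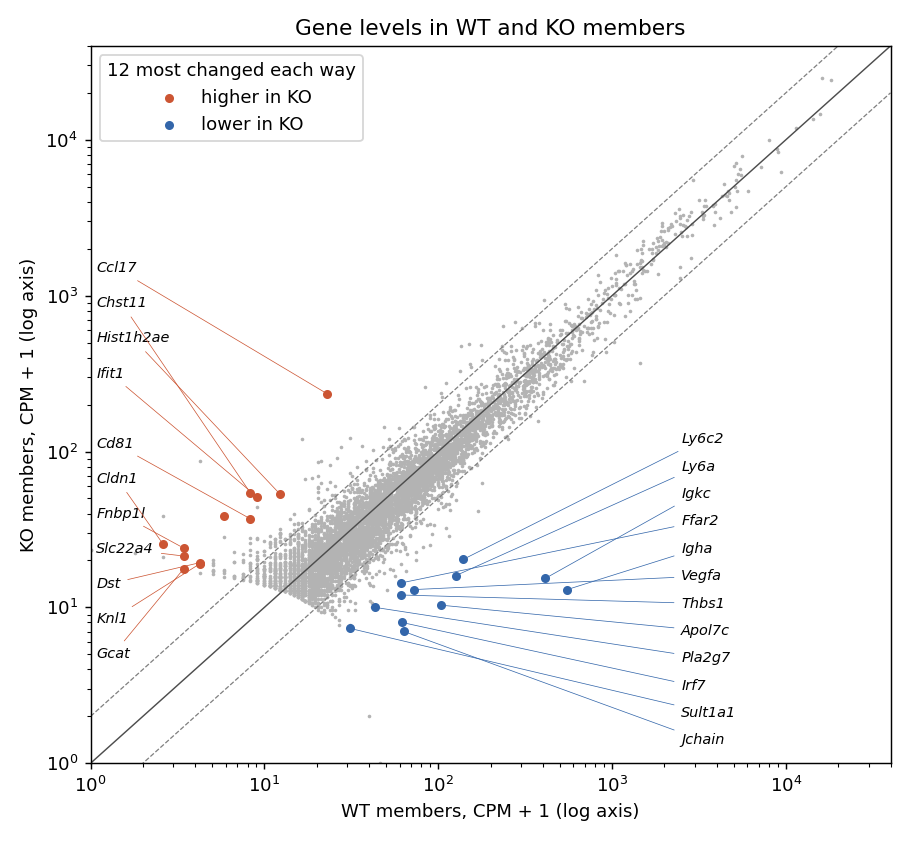
CPM + 1 in WT members (x, log axis) against KO members (y, log axis) for 6457 genes, with the line of equality and dashed lines at 2-fold. The 12 genes furthest above (red, Ccl17 highest at 234 CPM in KO) and the 12 furthest below (blue, Igha at 551 CPM in WT) are coloured, and most are named, among genes with a UMI in at least 10% of the members of the higher library.

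Lineage genes of conventional dendritic cells that the rule did not use were mixed. Of 20 genes in the list, 1 was at least 2-fold lower (Irf8), and the median log2 ratio was -0.14. The 1 that was at least 2-fold higher was Zbtb46, a gene of the rule, so that call only describes the choice. Irf8, the regulator of the cDC1 branch, was 47.0 CPM in WT and 18.7 CPM in KO (-1.33, -1.89 to -0.78). Irf4, the regulator of cDC2, was 118 and 163 CPM (0.46, 0.19 to 0.74), and Id2, which restrains E proteins in the lineage, was 246 and 427 CPM (0.80, 0.62 to 0.98). Klf4, which cDC2 need for type 2 responses, was lower in KO, with 418 CPM against 761 CPM in WT (-0.86, -0.99 to -0.74). These differences of Irf8, Irf4, Id2 and Klf4, which the rule did not use, were each larger than the counting error. The log2 ratios of the rule genes Zbtb46 (1.09, 0.52 to 1.70) and Flt3 (-0.73, -0.97 to -0.48) are given as a description.

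The 3 lectins of the rule are given as a description, since they chose the members. Mgl2 was 360 CPM in WT and 666 CPM in KO (0.89, 0.74 to 1.04). Cd209a was 815 and 827 CPM (0.02, -0.09 to 0.13), and Clec10a was 254.5 and 229 CPM (-0.15, -0.35 to 0.04). Cd209d, a related lectin that the rule did not use, was higher in KO, at 62.4 and 105 CPM (0.75, 0.38 to 1.13). With each cell thinned to 2000 UMIs, Mgl2 gave a UMI in 31.6% (23.3% to 40.9%) of 117 WT members and 48.0% (41.2% to 54.8%) of 221 KO members, against 55.1% and 68.0% unthinned. In other gated cells the log2 ratio of Mgl2 was 1.51 in mature Ccr7 cells and 2.09 in C1q macrophages. Of 17 C-type lectin genes measured, those of the rule among them, 0 were at least 2-fold higher and 1 at least 2-fold lower, Clec4a3 (-1.43, -1.93 to -0.93).

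Some of the genes that divide intestinal cDC2 were lower in KO, while the median of their list was close to that of all genes. Plet1, a surface protein of the CD103 cDC2 of the gut, was 178 CPM in WT and 61.7 CPM in KO (-1.53, -1.82 to -1.24). Itgae, which encodes CD103, was 118 and 51.0 CPM (-1.20, -1.54 to -0.87). Dpp4, a peptidase of the same cells, was 108 and 79.1 CPM (-0.45, -0.76 to -0.13). Cx3cr1, the fractalkine receptor, was 73.8 and 33.7 CPM (-1.13, -1.55 to -0.71). Of 17 cDC2 subset genes, 0 were at least 2-fold higher and 4 at least 2-fold lower, with a median of -0.09. The intervals of 6 lay above 0 and of 6 below, against 11.1% and 21.6% of all genes. The summed level was 3268 CPM in WT and 3421 CPM in KO. The list holds the rule genes Cd209a, Mgl2 and Clec10a, at 815, 360 and 254.5 CPM in WT and 827, 666 and 229 CPM in KO. Its median, interval counts and sum thus partly describe the choice. The integrin gene Itgam, which encodes CD11b, was 239 and 232 CPM (-0.04, -0.24 to 0.16).

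A UMI of Itgae, Plet1 or Dpp4 was seen in 71 of 118 WT members (60.2%) and 136 of 222 KO members (61.3%). A UMI of Dpp4, with or without the others, was seen in 50.8% and 55.4% of members. At 2000 UMIs per cell, Plet1 gave a UMI in 14.5% (8.70% to 22.2%) of WT members and 6.79% (3.85% to 10.9%) of KO members, and Itgae in 11.1% (6.05% to 18.2%) and 7.24% (4.20% to 11.5%). These intervals overlap. Unthinned, Plet1 gave a UMI in 22.0% and 16.7% and Itgae in 26.3% and 16.7%. In T cells at the same 2000 UMIs, Plet1 was 0 of 158 in WT and 0 of 53 in KO, while Itgae, which gut T cells also express, was in 48.1% and 3.77%. Members with at least 3 UMIs of Itgae, Plet1 and Dpp4 together were 38 of 118 in WT and 64 of 222 in KO. UMIs of 1 of these genes can reach that sum, so it does not show the genes together in a cell. These members held a median of 13372 UMIs in WT and 16966 in KO, above the 9890 and 12788 of all members.

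Several monocyte genes were lower in KO members, though the list's median was that of all genes. Ly6c2 (chr15:75108158-75111970, minus strand), the antigen of classical monocytes, was 139 CPM in WT and 19.4 CPM in KO (-2.84, -3.30 to -2.40). Plac8, also high in monocytes, was 1440 and 366 CPM (-1.98, -2.08 to -1.87). Ccr2, the receptor that brings monocytes and some cDC2 into tissue, was 469 and 277 CPM (-0.76, -0.91 to -0.60). Chil3, a chitinase-like protein, had 46 UMIs in WT and 0 in KO. Against 3 counts over the KO members, it was at least 37.3-fold lower there. Of 16 monocyte and macrophage genes measured, 1 was at least 2-fold higher and 3 at least 2-fold lower, with a median of -0.12, and the summed level of the list was 3936 CPM in WT and 2505 CPM in KO.

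The Ly6c2 signal came from a minority of members. A UMI was seen in 30 of 118 WT members (25.4%) and 16 of 222 KO members (7.21%), and in 15.4% (9.38% to 23.2%) and 2.26% (0.74% to 5.20%) at 2000 UMIs. In T cells, some of which make Ly6C as well, it was in 6.33% of WT and 15.1% of KO cells at that depth, so the order was the opposite one there. In the other 6 gated groups Ly6c2 was lower in KO, as in members, with log2 ratios of -1.54 in Plet1 Itgae Dpp4 cDC2, -2.86 in cDC1, -3.12 in mature cells, -0.89 in monocytes, whose gate required Ly6c2, -4.15 in C1q macrophages and -1.93 in B cells. The lower Ly6c2 was therefore not particular to members. Among members without a Ly6c2 UMI, 88 in WT and 206 in KO, the log2 ratio with a prior of 1 CPM was -0.31 for Ccr2 and -0.13 for Cx3cr1, against -0.76 and -1.11 in all members. Plac8 was also lower in KO in Plet1 Itgae Dpp4 cDC2 (-1.44), cDC1 (-1.98), mature cells (-1.66), C1q macrophages (-2.83) and T cells (-2.55). It was within counting error in monocytes (-0.13, -0.26 to 0.003) and higher in B cells (0.53, 0.33 to 0.73). The lower Plac8 was therefore not particular to members. In members Plac8 was lower in KO in all 20 other settings tried, with a smallest difference of -1.84. Lyz1 went the other way, with 0 UMIs in WT and 67 in KO, which is at least 9.19-fold higher against 3 counts over the WT members. Lyz2, its neighbour and near copy, was 712 and 731 CPM (0.04, -0.07 to 0.15).

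Some abundant genes of MHC class II presentation were higher in KO by less than 2-fold. Cd74, the invariant chain, was 16120 CPM in WT and 25055 CPM in KO (0.64, 0.61 to 0.66). H2-Eb1 was 5613 and 7852 CPM (0.48, 0.45 to 0.52), and H2-Ab1 was 7952 and 9977 CPM (0.33, 0.29 to 0.36). H2-Aa, which the rule used, was 8883 and 8783 CPM. H2-DMb2, a chain of the peptide exchanger, was 152 and 259.5 CPM (0.78, 0.54 to 1.01). The endosomal proteases Lgmn (-0.98, -1.20 to -0.75) and Ctss (-0.45, -0.55 to -0.35) were lower. Of 14 genes, 0 passed 2-fold in either direction, and the median was 0.03. The intervals of 6 lay above 0 and of 2 below, against 11.1% and 21.6% of all genes.

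Several genes of MHC class I presentation were lower in KO, most by less than 2-fold. B2m, the shared light chain, was 2469 CPM in WT and 1288 CPM in KO (-0.94, -1.01 to -0.87). H2-K1 was 1387 and 946 CPM (-0.55, -0.64 to -0.46). Tap1, which carries peptides into the endoplasmic reticulum, was 167 and 80.4 CPM (-1.05, -1.33 to -0.78). H2-D1 differed in the other direction, at 1294 and 1433 CPM (0.15, 0.06 to 0.23). Of 16 genes, 0 were at least 2-fold higher and 1 was at least 2-fold lower, and the intervals of 9 lay below 0 and of 2 above, against 21.6% and 11.1% of all genes. The median was -0.43. B2m was lower in the 7 other gated groups as well, T and B cells included.

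Genes of T cell costimulation and inhibition differed in both directions. Cd86 was 164 CPM in WT and 170.5 CPM in KO (0.06, -0.18 to 0.30). Cd80, the other ligand of CD28, was 60.8 and 116 CPM (0.93, 0.57 to 1.31). Lgals9, galectin 9, was lower (-1.19, -1.62 to -0.76) and was the 1 gene of 13 past 2-fold. The intervals of 4 of the 13 lay above 0 and of 2 below, against 11.1% and 21.6% of all genes, and the median was 0.06.

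Of the chemokine genes measured, Ccl17 differed most between the libraries. Ccl17 (chr8:94810453-94812036, plus strand), a ligand of CCR4 that draws T helper 2 and regulatory T cells, had 27 UMIs in WT members, or 21.9 CPM (14.4 to 31.8), and 702 UMIs in KO members, or 234 CPM (217 to 252). Its log2 ratio was 3.42 (2.87 to 4.03), and it stayed between 2.91 and 3.64 with a prior of 1 CPM over 20 other settings. The gene was spread over many cells, with a UMI in 8 of 118 WT members (6.78%) and 75 of 222 KO members (33.8%). At 2000 UMIs these shares were 3.42% (0.94% to 8.52%) and 18.6% (13.7% to 24.3%), and T cells had 0 of 158 and 0 of 53.

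Ccl17 also follows maturation, so it was read along the maturity genes. In KO, members with 0 UMIs of Ccr7, Fscn1 and Ccl22 had 258 CPM of Ccl17, those with 1 to 2 had 284 CPM and those with 3 to 4 had 120 CPM. In WT the same bins held 11.4, 45.4 and 32.8 CPM. KO was higher in each bin. This is a description, since the bins use genes of the rule, and the part of maturation was not tested. In mature Ccr7 cells the level of Ccl17 was 110 CPM (WT) and 848 CPM (KO), and its log2 ratio was 2.95.

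Of all genes, 2.49% were at least 2-fold higher in KO and 2.93% lower. Of 13 chemokine genes, 4 were at least 2-fold higher in KO and 0 lower, and the median was 0.60. Besides Ccl17 they were Ccl4 (MIP-1β), with 639 CPM in KO against 234 CPM in WT (1.45, 1.27 to 1.63), Ccl5 (RANTES), with 142 against 47.8 CPM (1.58, 1.18 to 1.99), and Cxcl10, the ligand of CXCR3, with 273 against 110 CPM (1.31, 1.04 to 1.58). These 3 were higher in KO in some other cells too. Ccl4 went from 998 to 9424 CPM in C1q macrophages and from 46.6 to 254 CPM in B cells, Ccl5 from 174 to 482 CPM in C1q macrophages, and Cxcl10 from 142 to 639 CPM in B cells, while all 3 were lower in KO T cells. Whether free RNA of other cells added to them in members was not tested. Ccl6 was lower (-0.51, -0.69 to -0.34). Cxcl2, a neutrophil chemokine, was 937 and 1025 CPM (0.13, 0.03 to 0.23). Among 11 genes of chemokine receptors and migration, 0 were at least 2-fold higher and 2 at least 2-fold lower, Cx3cr1 among them, with a median of -0.57.

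Genes of the type 2 and barrier cytokine response went both ways. Of 20, 4 were at least 2-fold higher and 1 at least 2-fold lower, against 2.49% and 2.93% of all genes. The median was 0.02. Il7r, a chain of the receptors of IL-7 and TSLP, was 30.0 CPM in WT and 120 CPM in KO (2.01, 1.52 to 2.54). Il1rl1, the IL-33 receptor, was 10.5 and 24.7 CPM (1.23, 0.37 to 2.20). Crlf2, the other chain of the TSLP receptor, was 94.8 and 103 CPM (0.12, -0.19 to 0.44), and Il4ra was 155 and 108 CPM (-0.52, -0.78 to -0.25). Il13ra1 was lower (-1.30, -1.75 to -0.84). Retnla, a secreted protein of alternative activation, had 4 UMIs in WT and 256 in KO, and C1q macrophages of the same libraries held 18.7 and 1144 CPM of it. Retnla was lower in KO in Plet1 Itgae Dpp4 cDC2, at 436.5 and 0 CPM, and in B cells, at 21.3 and 1.97 CPM. Whether Retnla in members came from free RNA of C1q macrophages was not tested.

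Cytokine genes went both ways. Of 11, 3 were at least 2-fold higher (Il1a, Ifnb1 and Areg) and 1 lower (Osm), with a median of -0.21. That median turned to 0.85 with the rule on thinned cells, 0.19 with C1q below 0.5% and 0.11 within 5000 to 20000 UMIs, so it has no stable direction. Il1b, the inflammasome cytokine, was 1116 CPM in WT and 878 CPM in KO (-0.35, -0.44 to -0.25). Areg, a growth factor for epithelium, was 21.1 and 48.0 CPM (1.19, 0.58 to 1.85). Tnf was 96.5 and 83.4 CPM (-0.21, -0.53 to 0.12), and Il10 was 48.6 and 37.7 CPM (-0.37, -0.83 to 0.11), both within counting error.

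Interferon response genes split into a larger set that was lower in KO and a smaller set that was higher. Of 24 type I interferon response genes, 9 were at least 2-fold lower and 2 at least 2-fold higher, and the intervals of 19 lay below 0 and of 3 above. Of all genes, 2.93% were at least 2-fold lower and 21.6% had an interval below 0. The median of the list was -0.74. It was -0.06 with members thinned to 2000 UMIs, where fewer genes reached 50 UMIs, -0.32 without members holding a Ly6c2 UMI, -0.31 without those holding Mki67 or Top2a and -0.40 with at least 200 UMIs. Irf7 (chr7:141262706-141266481, minus strand), the factor that amplifies interferon induction, was 60.8 CPM in WT and 7.01 CPM in KO (-3.12, -3.89 to -2.40). Oasl2 (-1.99), Xaf1 (-1.96), Ifi211 (-1.88), Zbp1 (-1.71) and Ifi27l2a (-1.29) were lower as well. Ifit1, an RNA sensor that blocks translation, was 8.11 and 50.04 CPM (2.63, 1.71 to 3.72), Oasl1 was 25.1 and 89.7 CPM (1.84, 1.30 to 2.42) and Isg15, a ubiquitin-like modifier, was 105 and 177 CPM (0.75, 0.47 to 1.04). Of 9 interferon gamma response genes, 4 were at least 2-fold lower (Gbp2, Gbp3, Irgm1 and Ifi47) and 1 higher (Cxcl10), with a median of -0.67.

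**Figure D4:**
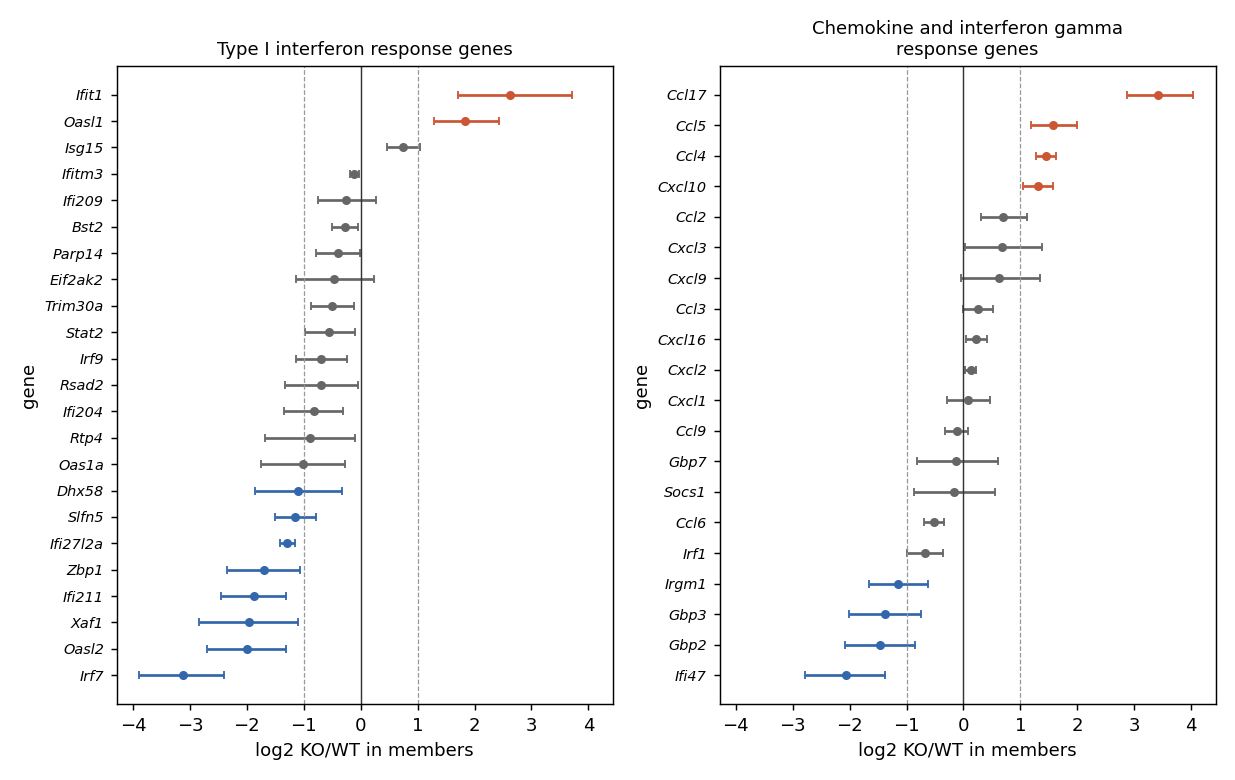
Log2 KO over WT ratios in members with exact 95% counting intervals for type I interferon response genes (left) and for chemokine and interferon gamma response genes (right) with at least 50 UMIs, 1 gene on the left not shown. Red points are at least 2-fold higher in KO and blue points at least 2-fold lower. Irf7 at -3.12 is lowest in the left panel and Ccl17 at 3.42 highest in the right.

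Much of the signal of some genes in the higher set came from few cells. Ifnb1 (chr4:88522025-88522774, minus strand), which encodes interferon beta, had 2 UMIs in 1 of 118 WT members and 113 UMIs in 16 of 222 KO members, or 1.62 and 37.7 CPM (4.54, 2.65 to 7.60). Those 16 KO cells held 88.7% of all Ifit1 UMIs of the KO members, 78.2% of Ccl5, 47.7% of Cxcl10, 45.3% of Ccl4, 41.4% of Isg15, 29.2% of Ccl17 and 26.4% of Oasl1, so most Isg15, Ccl17 and Oasl1 UMIs lay outside them. They held 14.3% of the Irf7 UMIs. Of 11 KO members with at least 3 Ifit1 UMIs, 10 also held an Ifnb1 UMI, and 1 cell gave 31.3% of the Ifit1 UMIs. C1q macrophages of the KO library held more Ifnb1, at 189 CPM against 1.04 CPM in WT.

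Without the cells that held an Ifnb1 UMI, 117 WT and 206 KO members were left. Ifit1 was then 8.16 CPM in WT and 6.199 CPM in KO (-0.40, -1.61 to 0.89), and Ccl5 was 45.7 and 33.9 CPM (-0.43, -0.92 to 0.08). Both had turned from higher in KO to a difference within counting error. Cxcl10 was 95.5 and 156 CPM (0.71, 0.41 to 1.02) and Ccl4 207 and 382 CPM (0.88, 0.68 to 1.09), still higher in KO but by less than 2-fold. Isg15 was 102 and 113 CPM (0.15, -0.15 to 0.46), within counting error. Oasl1 (1.51, 0.96 to 2.11), Ccl17 (3.04, 2.48 to 3.66) and Irf7 (-3.20, -4.03 to -2.44) stayed past 2-fold in the same direction. The excluded cells were chosen by a measured gene, so genes seen together with Ifnb1 were lowered by the choice itself.

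The promoters of 3 genes from the higher set and 1 from the lower set are shown because genes of both sets hold the letters of an interferon-stimulated response element. The bases are from the RefSeq promoter table (GRCm38.p6, 250 bases before to 50 after the start), printed 5′ to 3′ on the gene's strand, with matches in capitals. A match was GAAA, any 2 bases and GAAA again, or the same on the other strand, TTTC, any 2 bases and TTTC. The genes were chosen after their values were seen. Ifit1 (chr19:34640639-34640938, plus strand) held 2 matches, Isg15 (chr4:156200769-156201068, minus strand) held 3 overlapping ones, and Cxcl10 (chr5:92348840-92349139, minus strand) and Ifi211 (chr1:173912997-173913296, minus strand) held 1 each.
Ifit1: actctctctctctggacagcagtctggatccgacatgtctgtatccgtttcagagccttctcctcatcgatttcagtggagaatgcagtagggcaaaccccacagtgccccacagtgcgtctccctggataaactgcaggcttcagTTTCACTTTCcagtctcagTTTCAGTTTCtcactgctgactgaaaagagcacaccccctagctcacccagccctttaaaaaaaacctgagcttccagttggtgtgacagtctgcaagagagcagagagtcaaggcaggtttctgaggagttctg
Isg15: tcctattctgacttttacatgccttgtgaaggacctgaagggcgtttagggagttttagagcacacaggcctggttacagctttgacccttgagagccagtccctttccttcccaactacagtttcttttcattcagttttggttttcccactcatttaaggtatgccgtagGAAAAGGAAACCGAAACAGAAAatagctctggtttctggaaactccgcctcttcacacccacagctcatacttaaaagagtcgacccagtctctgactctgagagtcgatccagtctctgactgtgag
Cxcl10: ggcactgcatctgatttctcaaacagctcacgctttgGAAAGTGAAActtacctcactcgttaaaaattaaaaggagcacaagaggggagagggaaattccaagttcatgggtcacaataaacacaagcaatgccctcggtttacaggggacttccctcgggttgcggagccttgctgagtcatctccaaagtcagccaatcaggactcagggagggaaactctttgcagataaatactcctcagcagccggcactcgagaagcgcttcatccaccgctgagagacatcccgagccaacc
Ifi211: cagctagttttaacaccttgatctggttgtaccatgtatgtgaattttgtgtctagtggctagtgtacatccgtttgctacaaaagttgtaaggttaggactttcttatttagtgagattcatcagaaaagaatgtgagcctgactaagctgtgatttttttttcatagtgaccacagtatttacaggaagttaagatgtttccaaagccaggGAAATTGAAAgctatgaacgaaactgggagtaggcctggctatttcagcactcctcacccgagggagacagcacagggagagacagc

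The motif was found in 14 of the 24 type I interferon response genes with a promoter entry and in 11 of 15 interferon gamma response genes with one, against 3.99% of all 27025 genes with an entry. Among type I genes with 50 UMIs and an entry, it was in 1 of the 2 at least 2-fold higher in KO (Ifit1 and not Oasl1), in 2 of the 5 at least 2-fold lower (Ifi211 and Slfn5) and in 8 of the 10 others. Among such interferon gamma response genes it was in the 1 higher gene (Cxcl10), in 3 of the 4 lower ones (Gbp2, Gbp3 and Irgm1) and in 2 of the other 4. Genes with the motif were thus found in both directions. A match is a description of the letters and not of a bound site or of a cause.

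Several cell cycle genes were higher in KO. Mki67, a protein of dividing cells, was 103 CPM in WT and 237.5 CPM in KO (1.21, 0.93 to 1.49), and Ube2c, which acts at the end of mitosis, was 22.7 and 80.7 CPM (1.83, 1.26 to 2.45). Birc5 was 19.5 and 49.0 CPM (1.33, 0.70 to 2.02). Pcna, of DNA replication, was lower, at 296 and 192.5 CPM (-0.62, -0.81 to -0.43). Of 18 genes, 5 were at least 2-fold higher and 0 lower, against 2.49% and 2.93% of all genes. The median was 0.61. At 2000 UMIs, 14.5% (8.70% to 22.2%) of WT members and 24.0% (18.5% to 30.2%) of KO members held a Mki67 UMI, in overlapping intervals, against 28.0% and 49.5% unthinned. T cells at 2000 UMIs had 13.3% in WT and 0 of 53 in KO. The log2 ratio of Mki67 was 1.35 in mature Ccr7 cells, 1.12 in cDC1, 1.26 in C1q macrophages and -0.74 in B cells. It was within counting error in Plet1 Itgae Dpp4 cDC2 (0.52, -0.09 to 1.15) and monocytes (0.11, -0.71 to 0.84). The median of the list turned below 0 without members holding a Mki67 or Top2a UMI, who were left out by genes measured. Within members of 5000 to 20000 UMIs the median was 0.15. Members with a Mki67 or Top2a UMI held a median of 10508 UMIs in WT and 15174 in KO, above the 9890 and 12788 of all members, so that range of depth also leaves out cells by the genes measured. The part of depth in the difference was not tested.

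**Figure D5:**
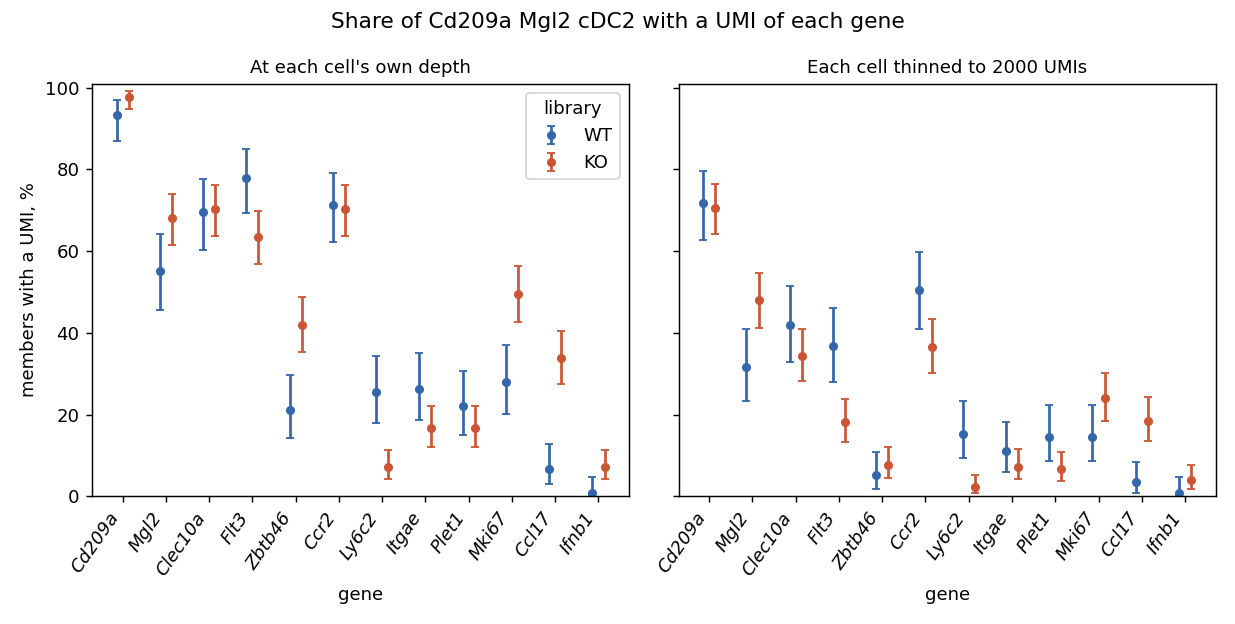
Percentage of members with a UMI of each of 12 genes at each cell's own depth (left) and with each cell thinned to 2000 UMIs (right), WT in blue and KO in red, with exact Clopper-Pearson 95% intervals. After thinning, Ccl17 stays apart (3.42% in WT and 18.6% in KO), as does Ly6c2 (15.4% and 2.26%), while the intervals of Zbtb46 and Itgae overlap.

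Several heat shock genes were higher in KO, led by the near-identical pair Hspa1a and Hspa1b, whose counts cannot be told apart with confidence. They were 135 and 150 CPM in WT and 471 and 492 CPM in KO (1.81, 1.58 to 2.05, and 1.71, 1.49 to 1.94). Of 13 genes, 4 were at least 2-fold higher and 0 lower, against 2.49% and 2.93% of all genes. The median was 0.21. Immediate early genes, which respond to tissue dissociation as well as to stimulation, had 0 of 25 past 2-fold in either direction and a median of -0.26. The intervals of 14 of the 25 lay below 0 and of 5 above, against 21.6% and 11.1% of all genes. Junb was 2863 and 1747 CPM (-0.71, -0.77 to -0.65) and Atf3 was 436 and 661 CPM (0.60, 0.46 to 0.74). Of 22 NF-kB response genes, 0 passed 2-fold and the median was 0.09. Tnip3, an inhibitor of NF-kB, was 359 and 638 CPM (0.83, 0.68 to 0.98).

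Runx3, which the study follows in macrophages and which dendritic cells also express, was 221 CPM in WT members and 156 CPM in KO members (-0.51, -0.72 to -0.29). At 2000 UMIs 32.5% (24.1% to 41.8%) of WT members and 22.6% (17.3% to 28.7%) of KO members held a UMI of it, in overlapping intervals. Runx3 was also lower in KO in Plet1 Itgae Dpp4 cDC2 (-1.28), cDC1 (-0.68), mature Ccr7 cells (-0.97), monocytes (-1.20) and C1q macrophages (-0.80). It was within counting error in T cells (-0.32, -0.75 to 0.09) and higher in B cells (0.63, 0.17 to 1.07). Runx1 was 353 and 288 CPM (-0.29, -0.46 to -0.12). Of 7 genes linked to MAPK signalling in the study, 1 was at least 2-fold higher (Hspa1a) and 0 lower, and the median was -0.08. Nr4a1, an orphan nuclear receptor, was 541.5 and 384 CPM (-0.50, -0.63 to -0.36).

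Several genes outside the lists were among the 12 furthest from even in each direction. Cldn1, a tight junction protein, had 2 UMIs in WT and 73 in 35 KO members (3.91, 2.00 to 6.98). Chst11, a chondroitin sulfotransferase, was 7.30 and 53.4 CPM (2.87, 1.91 to 4.03). Cd81, a tetraspanin, was 7.30 and 36.0 CPM (2.30, 1.33 to 3.47), with UMIs in 9 WT and 44 KO members. Fnbp1l (3.24), Slc22a4 (3.07), Dst (2.50), Knl1 (2.47), Hist1h2ae (2.20) and a copy of Gcat (2.78), whose symbol covers 2 features, were also in the higher set, as were Ccl17 and Ifit1. Knl1, Hist1h2ae and Gcat passed 2-fold in 19, 18 and 19 of 20 other settings.

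On the lower side, Apol7c, an apolipoprotein L that dendritic cells induce, was 102.1 CPM in WT and 9.34 CPM in KO members (-3.45, -4.10 to -2.85). In cDC1 it was lower in KO too, at 173 and 85.6 CPM (-1.02, -1.44 to -0.58), and in mature Ccr7 cells it was 294 and 266 CPM (-0.15, -0.30 to 0.01). Ly6a (Sca-1) was 126 and 15.0 CPM (-3.07, -3.58 to -2.58) and was lower in all 8 gated groups. Vegfa, the endothelial growth factor, was 71.3 and 12.01 CPM (-2.57, -3.17 to -1.996). Ffar2, a receptor for short-chain fatty acids such as butyrate, was 60.0 and 13.3 CPM (-2.17, -2.76 to -1.60), with UMIs in 33 of 118 WT and 24 of 222 KO members. Thbs1 (-2.45), Sult1a1 (-2.24) and Pla2g7 (-2.23) were the others, beside Irf7, Ly6c2 and 3 genes of plasma cells. Thbs1 turned to 0.077 with the rule on cells thinned to 3000 UMIs.

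Those were Igha, Igkc and Jchain, the chains of IgA, at 551, 412 and 62.4 CPM in WT members and 12.01, 14.3 and 6.005 CPM in KO members. All immunoglobulin genes together took 1191 CPM in WT against 93.4 CPM in KO. A UMI of one was seen in 118 of 118 WT members and 142 of 222 KO members (64.0%). T cells, which do not make immunoglobulin, held 13768 CPM in WT and 127 CPM in KO. The immunoglobulin level thus moved with the library in cells of other types too, and its part in the other differences was not tested. Of 5 B and plasma cell genes with 50 UMIs, 3 were at least 2-fold lower, and the summed list was 1335 CPM in WT and 205 CPM in KO.

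Lists of other cell types were also lower in KO in their summed level. The sum went from 49.5 to 8.01 CPM for T and NK genes and from 113 to 41.7 CPM for neutrophil and eosinophil genes. For epithelial and stromal genes it went from 262 to 137 CPM, but the genes of this list did not all fall. Of its 4 genes with 50 UMIs, Epcam (-1.05, -1.46 to -0.63) and Cdh1 (-1.18, -1.67 to -0.69) were at least 2-fold lower. Muc2 was at least 2-fold higher, rising from 8.92 to 22.0 CPM (1.30, 0.37 to 2.37). Epcam is also counted among the cDC2 subset genes. Gzmb, granzyme B, had 48 UMIs in WT and 3 in KO members (-5.28, -7.61 to -3.65) and made up 38.9 of the 49.5 CPM of the T and NK list in WT, so that list's difference was mostly this gene. Their part in the differences was not tested. Cst3, the protease inhibitor cystatin C and a gene high in dendritic cells, was 2911 and 5551 CPM (0.93, 0.88 to 0.98).

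Measured genes of oxidative phosphorylation and glycolysis stayed within 2-fold. Of 20 nuclear genes of oxidative phosphorylation, 0 passed 2-fold and the median was -0.12, close to that of all genes. The intervals of 6 lay below 0 and of 1 above. Of 14 glycolysis genes, 0 passed 2-fold and the median was -0.06. Of 10 genes of retinoic acid and tolerance, 0 were at least 2-fold higher and 1 lower (Axl, -1.15, -1.59 to -0.71), with a median of 0.07. Of 9 innate receptor genes and 4 Fc receptor genes, 0 passed 2-fold, with medians of -0.27 and -0.21. The Fc receptor median turned above 0 in some other settings, given at the end, so it has no stable direction. Of 17 lipid and lysosome genes 1 was higher and 1 lower, with a median of -0.22. The intervals of 8 of these 17 lay below 0 and of 2 above, against 21.6% and 11.1% of all genes.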

How the data were processed

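The authors deposited unnormalized UMI counts for each gene in each barcode, and Cell Ranger 3.0.2 is named in the file headers. The submitters' processing notes name Seurat 4 and mm10. The aligner settings and the annotation were not given in the sources used here. There were 3185 WT barcodes with 22191774 UMIs in all and 3020 KO barcodes with 23384895, fewer cells than the study states. 1 barcode was shared.

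The cell filter of the study was applied and the members were found by the rule given in the text. The members, the gene lists and the rule for named genes were chosen with earlier results of these data known. Counts were summed per library over the members and given as CPM with exact Poisson intervals. KO to WT ratios have exact conditional binomial intervals and shares have exact Clopper-Pearson intervals (Python 3.11.15, numpy 2.4.6, scipy 1.17.1, pandas 2.3.3, matplotlib 3.10.9). The ratio interval, the fold call and the thinning were tested on simulated data. The simulated sums held counting error only and no further spread between cells. With 1 library per genotype no test was made. Genes with at least 50 UMIs were described, and at least 2-fold means a log2 ratio of 1 or more either way with a prior of 1 CPM. Named were the genes of the rule and the lists, the 12 most changed each way with a UMI in at least 10% of members of the higher library, and the 20 genes highest in members over other cells. Coordinates are from GENCODE M21 (GRCm38), which 30934 of 31053 features matched. Scrublet (scanpy 1.11.5) called 1 WT and 9 KO cells, too few to have worked, so no doublets were removed. Alternatives were other limits of the rule, cell filters, denominators, depths, scalings (TMM from edgeR 4.0.16), priors and count minimums. Clec7a, Clec6a and Ifi30 were not analysed here, and some genes that these rules name are not reported here.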

Additional observations from a re-analysis of the deposited data

Results flagged for a closer look

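Ly6c2 and Hist1h2ae differed in direction between members and T cells. The log2 KO over WT ratio of Ly6c2 was -2.84 in members and 0.53 in T cells, and that of Hist1h2ae was 2.20 in members and -2.11 in T cells. In the 6 other gated groups Ly6c2 was lower in KO as in members, from -0.89 in monocytes, whose gate required Ly6c2, to -4.15 in C1q macrophages. Hist1h2ae was lower in KO in cDC1 too (-0.51, -0.86 to -0.16). It was higher in mature Ccr7 cells (0.72, 0.22 to 1.25) and within counting error in B cells (-0.08, -0.63 to 0.42). The remaining groups had at most 5 UMIs of it in either library. These differences between cell types were not tested, since each genotype has 1 library, and 158 WT and 53 KO T cells stand behind the T cell values.

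Of the barcodes that the cell filter removed, 4 in KO and 0 in WT met the gene conditions of the rule. All 4 held more than 15% mitochondrial UMIs.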

How the results depend on the processing

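The share of members was recomputed under 11 settings and the gene ratios under 22. In WT the share was 3.47% with at least 8 lectin UMIs, 3.74% with a Flt3 or Zbtb46 UMI required, 3.33% with the rule on cells thinned to 3000 UMIs, 5.43% with at least 500 genes and at most 10% mitochondrial UMIs, 3.71% over every deposited barcode and 38.3% among gated dendritic cells. In KO it was 7.24%, 7.04%, 11.3%, 9.93%, 7.48% and 30.1%. The log2 ratio of the shares was 1.76 after thinning, turned to -0.35 among gated dendritic cells and lay between 0.84 and 1.06 in the other settings. The share among gated dendritic cells was not recomputed on thinned cells. Genes at least 2-fold higher numbered 61 and lower 59 with members thinned to 2000 UMIs, 71 and 75 with a prior of 10 CPM, 355 and 351 with at least 20 UMIs and 45 and 36 with at least 200 UMIs, of which the last 2 change the number of genes described. TMM scaling left 121 lower, and members without a Mki67 or Top2a UMI left 105 higher. The settings without Mki67 or Top2a, without Ifnb1 and with 5000 to 20000 UMIs were chosen after seeing the data. Of 1749 list medians and single genes recomputed, 1545 stayed within the counting spread or, for list medians, within 0.2 of the reported value, and 194 moved. The other 10 turned in direction. Without cells holding an Ifnb1 UMI, Ifit1 turned to -0.35 and Ccl5 to -0.42. The cell cycle median turned to -0.25 without Mki67 or Top2a. The cytokine median turned to 0.85 after thinning the rule, 0.19 with C1q below 0.5% and 0.11 within 5000 to 20000 UMIs. The Fc receptor median turned to 0.13 with C1q below 0.5%, 0.13 with members thinned and 0.062 without Ly6c2. Thbs1 turned to 0.077 after thinning the rule. The type I interferon median was -0.06 with members thinned, where fewer genes were described. Other causes were not tested. No paired analysis was possible because each genotype has 1 library. Genes near 50 UMIs, and groups under 50 cells (Plet1 Itgae Dpp4 cDC2, WT cDC1, KO monocytes), are limited by depth.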
